A study of Mus musculus with 12 samples.

Results

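Of the NONCODE transcripts probed on a mouse array, those with the brightest signal in spleen are described here. NONCODE is a public catalogue of non-coding RNAs, and the prefix NONMMUT marks its mouse transcripts. Members were selected on measured values: a transcript was kept when its level, averaged over the 12 arrays, was 2 or more. The level is the log2 processed signal of a probe minus the 75th percentile of its array, so a level of 2 is a signal 4 times that percentile. The rule kept 1268 transcripts, which is 4.42% of the 28697 NONCODE transcripts with a value on all 12 arrays (of 97461 features of all kinds with such a value). Another 37 NONCODE transcripts reached the level on the arrays where they had a value, but had no spot left on at least 1 array, for 30 of them OVA day 14 replicate 4, and were not counted as members.

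The arrays held RNA from spleens of female BALB/c mice, an inbred strain, that were 6 weeks old at treatment. OVA mice received ovalbumin, an egg-white protein used to sensitise mice, into the peritoneum at 2 mg/kg on days 1, 3 and 5, and control mice received the solvent, normal saline, in place of it. Spleens were taken on day 14 (2 control and 4 OVA arrays) or on day 28 (2 control and 4 OVA arrays). The labels number the arrays of a group as replicates and do not say whether each array is 1 mouse. If it is not, the p-values measure only the spread between these preparations. Whole spleen was used, so fewer cells of a type and less RNA per cell cannot be told apart.

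Long non-coding RNAs are transcripts without an evident protein-coding frame, some of which act on chromatin, on splicing or as hosts of small RNAs. The spleen filters blood and is a secondary lymphoid organ, in which B and T cells meet antigen carried by the blood. The level of a lncRNA in whole spleen therefore sums over lymphocytes, myeloid cells, red cell precursors and stroma. For the NONMMUT probes the sources used here pair no gene name, position or sequence with an identifier, so each transcript is reported by its identifier alone and no role is given. A probe's signal also depends on the probe itself, and the order of levels between transcripts is an order of brightness, not of RNA amount.

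All 4 controls lay on slide 1, the OVA day 14 arrays on slide 2 and the OVA day 28 arrays on slide 3. For OVA against control on either day and for OVA day 28 against OVA day 14, group and slide cannot be told apart, while the control days share a slide. The change of the OVA effect between days cannot be told apart from a difference between slides 2 and 3 either. The 75th percentile itself was a signal of 316 to 371 on slide 1, 267 to 288 on slide 2 and 484 to 549 on slide 3, and between 57.5% and 80.0% of the non-control spots of an array were well above background. None of 33 marker genes of spleen cell types had a named probe, so the tissue label could not be checked. Of 16 other well-known non-coding RNAs, 5 had a named probe. Rpph1, the RNA of RNase P, stood at a level of 5.69 ± 0.20 (SD, n = 12) and Norad, a long non-coding RNA, at 3.12 ± 0.16 (SD, n = 12). The snoRNA host genes Snhg5 and Snhg8 stood at 2.21 ± 0.10 and 2.09 ± 0.24 (SD, n = 12), and Dleu2, a host of microRNAs, at -4.03 ± 0.70 (SD, n = 12), far below the selection level.

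Members spanned a wide range of brightness. Their levels ran from 2.00 to 8.19 with a median of 2.98 and quartiles of 2.43 and 3.98, against a median of -2.82 over all 28697 NONCODE transcripts. A level of 3 or more was reached by 623 members, 4 or more by 313 and 6 or more by 72. On all 12 arrays all 1268 were well above background, which held for 12715 (46.4%) of the dimmer NONCODE transcripts. No non-control spot was saturated. On the single arrays 977 members were at or above a level of 2 throughout, and 291 fell under it on at least 1 array. The threshold cut through a continuous distribution. The members just inside it were NONMMUT074296, NONMMUT052143 and NONMMUT038075, and just outside lay NONMMUT025493, NONMMUT043061 and NONMMUT055736; the means of all 6 round to 2.00.

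**Figure D1:**
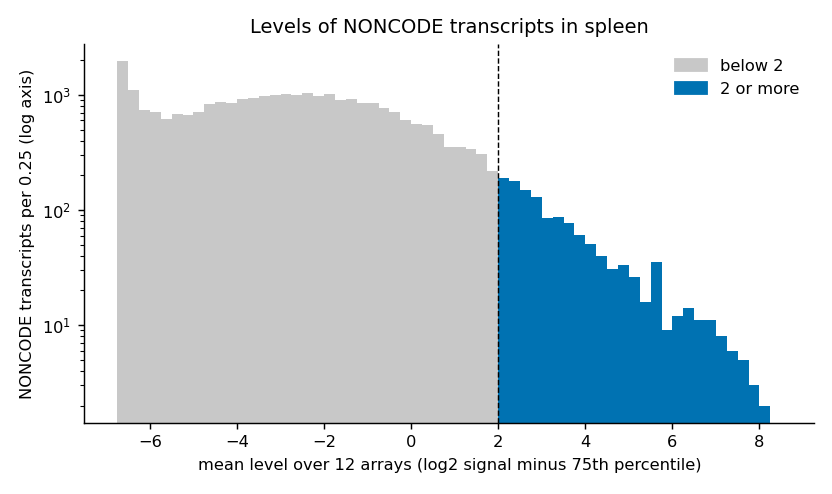
Number of NONCODE transcripts (log axis) by mean level over 12 arrays, in steps of 0.25, with members in blue and the selection level of 2 as a dashed line. The 1268 members form the upper tail, which thins from 188 transcripts between 2 and 2.25 and shows no gap at the selection level.

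The 10 brightest members had means from 7.53 to 8.19. NONMMUT057771, the brightest, read 8.09 and 8.03 in controls and 8.05, 8.28, 8.26 and 8.41 with OVA at day 14. It read 8.13 and 8.36 in controls and 8.82, 8.05, 7.99 and 7.86 with OVA at day 28. Its OVA groups overlapped each other and both control groups, while its day 14 controls lay below its day 28 controls. The widest spread was inside the OVA day 28 group. NONMMUT056508 (mean 8.14) and NONMMUT057031 (mean 7.88) followed the same order inside that group.

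The rest of the 10 were NONMMUT036216 (7.78), NONMMUT063949 (7.75), NONMMUT042254 (7.61), NONMMUT053650 (7.59), NONMMUT073241 (7.56), NONMMUT058701 (7.54) and NONMMUT016124 (7.53). Neighbouring levels in this order differed by less than the standard deviation of either transcript over the 12 arrays, which was 0.20 to 0.35 for the 10.

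Replicates of the members lay close together. The median standard deviation within groups was 0.14 for members (5th to 95th percentile 0.07 to 0.28), beside 0.19 for the 19189 dimmer NONCODE transcripts tested and 0.13 for 7550 other features at a level of 2 or more. Of the members, 888 had 2 spots on the array, and the median absolute difference of the 2 spots of a probe on 1 array was 0.06 over 10592 such pairs. It exceeded 1 in 27 pairs, 22 of them on control day 14 replicate 1. That array carries a stretch of shifted signal over 3854 spots, among them 51 spots of members.

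Over all 12 arrays the standard deviation of a member had a median of 0.21 and ran from 0.06 to 1.09. The steadiest members were NONMMUT060290, NONMMUT070491, NONMMUT060129 and NONMMUT071936, with standard deviations of 0.06, 0.06, 0.06 and 0.07. NONMMUT060290 read 3.70 and 3.68 in day 14 controls, 3.81 and 3.78 in day 28 controls, 3.83, 3.79, 3.77 and 3.70 with OVA at day 14, and 3.84, 3.81, 3.85 and 3.68 with OVA at day 28. Its OVA groups overlapped each other and both control groups, and its day 14 controls lay below its day 28 controls.

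The members of largest spread were NONMMUT068913 (standard deviation 1.09), NONMMUT052414 (0.93), NONMMUT071848 (0.77) and NONMMUT073717 (0.76). NONMMUT052414 stood apart on 1 array. It read 1.28 on control day 14 replicate 1 and between 3.94 and 4.76 on the other 11 arrays. On that array the retained spot lay within the stretch of shifted signal, and its other spot, left out because the scanner program flagged it as an outlier, read 3.93. The other 3 were high on all 4 OVA day 28 arrays and are described with the comparisons.

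Brightness and array moved together in the OVA day 28 group. Among the 72 members with a level of 6 or more, OVA day 28 replicate 1 was the highest of its 4 arrays for all 72, and replicate 4 the lowest for 67. Their median deviation from the transcript's own 12-array mean was 0.27 on replicate 1, -0.04 on replicate 2, -0.10 on replicate 3 and -0.29 on replicate 4. Among the 366 members between 2 and 2.5 the corresponding medians were 0.04, 0.02, -0.02 and -0.06. The median standard deviation within the OVA day 28 group went from 0.10 in the dimmest class to 0.23 in the brightest, whereas it was 0.12 and 0.08 in the OVA day 14 group. The part of this pattern in the group comparisons was not tested beyond leaving out single arrays.

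**Figure D2:**
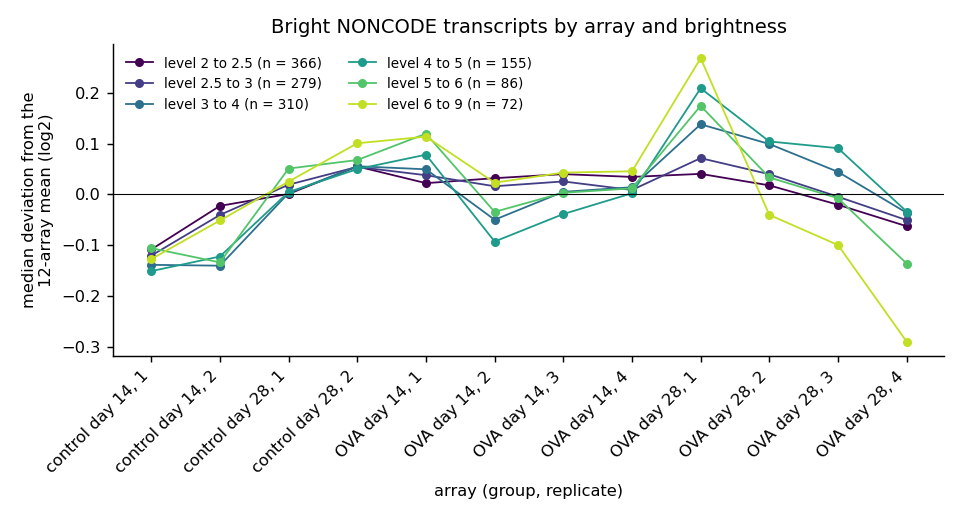
Median deviation of members from their own mean over 12 arrays (log2), by array (group and replicate number) and by class of mean level. Lines join the arrays only to guide the eye. The 72 brightest members spread from 0.27 on OVA day 28 replicate 1 to -0.29 on replicate 4, and the dimmest class stays within -0.11 and 0.06 on every array.

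Differences between groups were tested with limma in 1 fit over the 72645 features that stood well above background throughout 1 or more of the groups, with Benjamini-Hochberg adjustment over all of them and an adjusted p under 0.05 as threshold. The rule averaged over all 4 groups, so a transcript near the level could become a member through 1 high group and then had to differ in it. Without the OVA day 28 arrays 37 members had a mean under 2, and without the OVA day 14 arrays 32, without the day 28 controls 14 and without the day 14 controls 10. In the other direction, 40 transcripts outside the set would have reached the level without the OVA day 28 arrays. Counts that include such members are therefore descriptions, and the main ones are also given without those of 1 group at a time. At day 14 no member passed the threshold for OVA against control, beside 0.0606% of all features tested. In limma 218 members (17.2%) had an unadjusted p under 0.05, beside 14.2% of all features. The median difference over members was 0.11 on the log2 scale and 946 members were higher with OVA, beside a median of 0.03 over all features. The direction of that median depends on the scaling: with 8 spike-in RNAs as reference it was -0.13 over members and -0.21 over all features. The spike-in RNAs, which are added during labelling, differed between the same groups by 0.11 to 0.38 (log2), all 8 with OVA above control. Without control day 14 replicate 2 limma called 36 members (2.84%), 35 of them higher, beside 3.03% of all features, of which 610 were higher and 1714 lower. The lone day 14 control is then the array with the stretch of shifted signal. Without OVA day 14 replicate 2 limma called 2 members (0.158%), beside 0.107% of all features.

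The 3 members with the largest moderated t at day 14 all missed the threshold. NONMMUT017847 read 2.42 and 3.22 in controls and 3.95, 3.74, 4.02 and 4.05 with OVA. The groups did not overlap, and the difference of 1.12 ± 0.19 (log2, SE) had a limma adjusted p of 0.066. The low control is control day 14 replicate 1, where the 2 spots of the transcript read 3.42 and 1.42. With spots in the stretch of shifted signal left out, the difference was 0.62 (limma adjusted p = 0.087), and without that array it was 0.72 (limma adjusted p = 0.114). The day 28 controls of the same transcript, at 3.91 and 3.69, stood with the OVA arrays, so the day 14 controls were the group apart.

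NONMMUT020575 read 4.21 and 4.05 in controls and 3.39, 3.64, 3.14 and 3.20 with OVA, a difference of -0.79 ± 0.15 (log2, SE; limma adjusted p = 0.084). NONMMUT003957 read 2.84 and 2.50 in controls and 3.47, 3.10, 3.34 and 3.43 with OVA, a difference of 0.66 ± 0.13 (log2, SE; limma adjusted p = 0.086). In both the control and OVA arrays of day 14 were separate. With spike-in scaling the difference of NONMMUT003957 was 0.42 (limma adjusted p = 0.106). Over the alternatives the limma adjusted p ran from 3.6e-04 to 0.305 for NONMMUT017847, from 0.016 to 0.305 for NONMMUT020575 and from 0.028 to 0.310 for NONMMUT003957.

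At day 28, 254 of 1268 members (20.0%) passed the threshold for OVA against control, beside 14.1% of all features tested. Of these, 123 were higher with OVA (all features: 7.49%) and 131 lower (all features: 6.64%). Other features at a level of 2 or more were called at 17.7% and dimmer NONCODE transcripts at 13.4%, so the members' share lay near that of other bright features. Of the 37 members under the level without the OVA day 28 arrays, 20 were called, all higher. The other 1231 held 234 calls (19.0%), 103 higher and 131 lower. Of the 14 members under the level without the day 28 controls, 6 were called, all lower. The other 1254 held 248 calls (19.8%), 123 higher and 125 lower. Neither count leaves out both sets. The median difference was -0.02 over members and -0.03 over all features. Splits by direction moved with the scaling and background: 259 of 439 calls were higher after normexp and 150 of 256 after quantile normalization. Over all features 6344 of 27428 calls were higher after normexp and 5618 of 10600 after quantile normalization. Normexp called 34.6% of members, beside 37.8% of all features. The main count of 254 changed when 1 array was left out. It fell to 64 without control day 28 replicate 1, 42 without control day 28 replicate 2, and 139, 131 and 141 without OVA day 28 replicate 1, 2 and 3. The share of members called was 5.05%, 3.31%, 11.0%, 10.3% and 11.1% in these fits, beside 4.4%, 2.67%, 8.15%, 8.12% and 8.47% of all features. The 8 spike-in RNAs differed between the same arrays by -0.41 to 0.51 (log2) beside a 5th to 95th percentile of -0.52 to 0.59 over members. Since slide and group coincide here, the p-values take no account of a difference between slides.

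Differences at day 28 were mostly small. At least 2-fold and past the threshold were 9 members, beside 1.19% of all features tested. All 9 were higher with OVA, as were 773 of the 863 such features, and 4 of the 9 are among the members under the level without the OVA day 28 arrays. Calls were fewer among the brightest members: 82 of 366 between levels of 2 and 2.5, 78 of 279 up to 3, 60 of 310 up to 4, 22 of 155 up to 5, 9 of 86 up to 6, and 3 of 72 above. Of the 12 calls at levels of 5 or more, 1 was higher with OVA. Among other features the share of calls went from 21.9% between 2 and 2.5 to 5.74% at 6 or more.

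**Figure D3:**
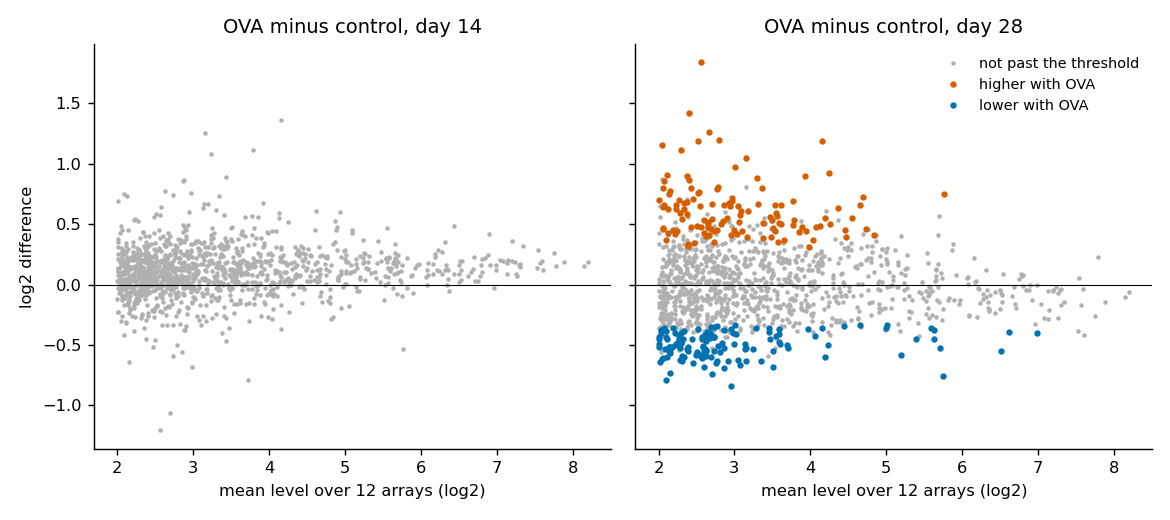
Log2 difference between OVA and control arrays at day 14 (left) and day 28 (right) against the mean level over 12 arrays, 1 point a member; coloured points passed limma's adjusted p under 0.05. No member is coloured at day 14, and at day 28 the coloured points, 123 higher and 131 lower, thin out above a level of 5.

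NONMMUT068913 showed the largest rise at day 28. It is a member only through the group in which it rose: its mean over the 8 arrays outside OVA day 28 was 1.83. It read 2.04 and 2.26 in day 28 controls and 4.25, 4.11, 3.88 and 3.71 with OVA. The groups were far apart, and the difference was 1.84 ± 0.19 (log2, SE), or 3.58-fold (limma adjusted p = 5.8e-04). The other 2 groups stood with the day 28 controls, at 1.72 and 1.57 in day 14 controls and at 2.06, 1.38, 1.70 and 1.94 with OVA at day 14.

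NONMMUT031689 had the next largest rise and is likewise a member only through OVA day 28, with a mean of 1.91 over the 8 other arrays. It read 1.92 and 1.99 in day 28 controls and 3.39, 3.38, 3.48 and 3.27 with OVA, a 2.68-fold rise (1.42 ± 0.10, log2, SE; limma adjusted p = 6.3e-05). It lay between 1.67 and 2.07 on all day 14 arrays, so its OVA day 28 arrays were above the other 8. NONMMUT054298 had the same shape, with 2.60 and 2.34 in day 28 controls and 3.58, 3.85, 3.61 and 3.65 with OVA (2.30-fold; 1.20 ± 0.11, log2, SE; limma adjusted p = 3.0e-04).

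NONMMUT002486, a brighter member, read 3.71 and 3.73 in day 28 controls and 5.01, 4.87, 4.94 and 4.82 with OVA, a 2.28-fold rise (1.19 ± 0.11, log2, SE; limma adjusted p = 2.8e-04). NONMMUT071848 rose 2.40-fold, from 2.26 and 2.51 to 3.69, 3.84, 3.58 and 3.50 (limma adjusted p = 0.0034). NONMMUT073789 rose 2.28-fold, from 1.76 and 2.06 to 3.30, 3.18, 3.10 and 2.82 (limma adjusted p = 0.0049). In this last transcript the day 28 controls lay below the day 14 controls, at 2.21 and 2.48, and it lost the call without control day 28 replicate 1. The limma adjusted p of NONMMUT073789 ran from 5.6e-04 to 0.053 over the alternatives.

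The falls at day 28 were smaller than the rises. NONMMUT029595 fell most, from 3.04 and 3.48 in controls to 2.45, 2.43, 2.38 and 2.43 with OVA, by 0.84 on the log2 scale (SE 0.15; limma adjusted p = 0.0060). NONMMUT045834, the brightest of the 6, read 6.08 and 6.26 in controls and 5.41, 5.28, 5.39 and 5.57 with OVA, and fell by 0.76 on the log2 scale (SE 0.12; limma adjusted p = 0.0034). The 4 OVA day 28 arrays of both transcripts lay below all their other arrays.

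NONMMUT006478, NONMMUT049908, NONMMUT029138 and NONMMUT060329 fell by 0.79, 0.74, 0.73 and 0.69 on the log2 scale, with limma adjusted p of 0.0100, 0.0049, 0.013 and 0.0044. NONMMUT060329 read 3.01 and 3.33 in controls and 2.44, 2.53, 2.48 and 2.48 with OVA, a spread of 0.04 (SD, n = 4) in the OVA group. Without control day 28 replicate 2 these 4 and NONMMUT029595 no longer passed. Over the alternatives the limma adjusted p reached 0.101 for NONMMUT006478, 0.055 for NONMMUT049908, 0.130 for NONMMUT029138, 0.056 for NONMMUT060329 and 0.073 for NONMMUT029595, from lows of 0.0018, 6.4e-04, 0.0016, 6.3e-04 and 6.5e-04.

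**Figure D4:**
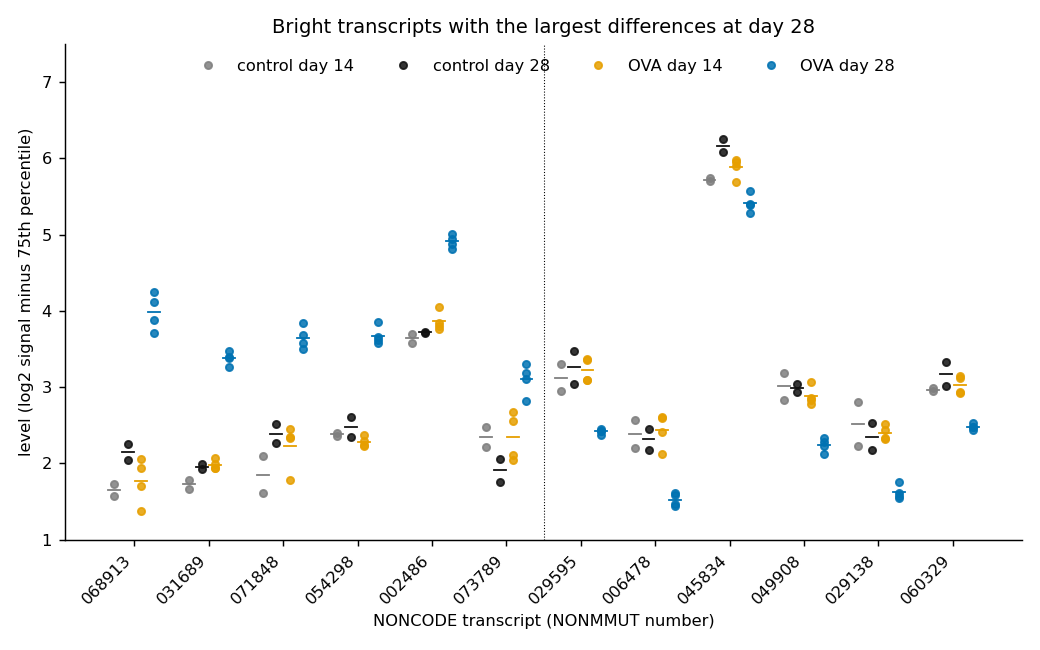
Level (log2 signal minus the 75th percentile of the array) of the 6 members that rose most (left of the dotted line) and the 6 that fell most (right) for OVA against control at day 28; points are arrays, short bars group means, and tick labels give the NONMMUT numbers. Only called members whose 2 groups at day 28 did not overlap were eligible. The OVA day 28 arrays (blue) are therefore apart from the day 28 controls (black) in every one by choice. NONMMUT068913 shows the widest gap, from 2.26 to 3.71.

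Between the OVA groups, 543 members (42.8%) differed past the threshold for day 28 against day 14, beside 33.3% of all features tested and 44.8% of other features at a level of 2 or more. At day 28, 282 were higher (all features: 15.8%) and 261 lower (all features: 17.5%). With normexp 466 of 713 calls were higher and with spike-in scaling 345 of 495, so the split depends on these choices. Over all features 9718 of 46924 calls were higher with normexp and 13966 of 19540 with spike-in scaling. Normexp called 56.2% of members, beside 64.6% of all features. Without the 37 members that reached the level only with the OVA day 28 arrays, 513 of 1231 were called (41.7%), 252 higher and 261 lower. Of the 32 members under the level without the OVA day 14 arrays, 24 were called, all lower. The other 1236 held 519 calls (42.0%), 282 higher and 237 lower. Neither count leaves out both sets. Calls of at least 2-fold numbered 21, beside 2.59% of all features tested. All 21 were higher at day 28, as were 1722 of the 1878 such features, and 6 of the 21 are among those 37 members. The OVA day 28 arrays take part in this comparison and in that with the day 28 controls, so the values of a transcript in both are not independent.

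NONMMUT068913 again differed most, 4.65-fold higher at day 28 (2.22 ± 0.16, log2, SE; limma adjusted p = 1.1e-05). NONMMUT071848, NONMMUT031689 and NONMMUT054298, given above, rose 2.68-fold, 2.63-fold and 2.62-fold between the OVA days (limma adjusted p = 1.3e-04, 3.2e-06 and 6.6e-06). NONMMUT073717 read 1.94, 1.39, 1.18 and 1.71 with OVA at day 14 and 3.06, 2.90, 3.12 and 2.83 at day 28, a 2.67-fold rise (limma adjusted p = 3.0e-04). Its day 14 controls were also low, at 1.61 and 0.93, and its day 28 controls were at 1.94 and 2.29. NONMMUT059953 rose 2.57-fold, from 2.31, 1.37, 1.66 and 1.93 to 3.32, 3.25, 3.11 and 3.03 (limma adjusted p = 3.7e-04). NONMMUT073717 and NONMMUT059953 are also members only through OVA day 28, with means of 1.63 and 1.96 over the 8 other arrays.

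In the other direction NONMMUT028653 read 2.25, 2.62, 2.51 and 2.40 with OVA at day 14 and 1.52, 1.45, 1.50 and 1.54 at day 28. It fell by 0.94 on the log2 scale (SE 0.10; limma adjusted p = 1.1e-04), and its controls, between 2.07 and 2.46, lay above the OVA day 28 arrays. NONMMUT067371 fell by 0.94, from 3.72, 3.94, 4.02 and 3.77 to 2.98, 2.94, 2.91 and 2.86 (limma adjusted p = 5.2e-05). NONMMUT057198 also fell by 0.94, with a wider spread, from 2.93, 2.24, 3.25 and 2.65 to 2.07, 1.71, 1.53 and 2.00 (limma adjusted p = 0.012). Its day 28 controls, at 2.13 and 1.88, stood among or beside its OVA day 28 arrays.

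NONMMUT006478, NONMMUT066023 and NONMMUT032123 fell by 0.91, 0.86 and 0.85 between the OVA days, with limma adjusted p of 4.8e-04, 0.0013 and 2.0e-04. Of the members that fell, NONMMUT028653, NONMMUT006478 and NONMMUT032123 reached the level only with the OVA day 14 arrays, the higher group here, and had means of 1.85, 1.94 and just under 2 without them. All 12 of these differences between the OVA groups kept their direction and passed the threshold under each alternative tried. The alternatives reuse the same arrays. For the members that reached the level only through the higher group, the selection already favoured a difference. Their p-values and their persistence are therefore descriptions and no separate support.

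The OVA day 28 group stood apart in the members as a whole. The first principal component of their levels held 60.0% of the variance, and its scores were 7.69 to 9.87 on the 4 OVA day 28 arrays and -8.00 to -1.94 on the other 8. For 228 members (18.0%) the 4 OVA day 28 arrays all lay above the other 8, beside 11.1% of all features tested, and for 194 (15.3%) all below, beside 9.81%. Over the 1231 members that reached the level without these arrays the counts were 202 (16.4%) and 194 (15.8%). The OVA day 28 mean was the highest of the 4 group means in 520 members (41.0%), beside 30.9% of all features tested, and the lowest in 435 (34.3%), beside 37.7%. The control day 14 mean was the lowest in 607 members (47.9%), beside 28.0% of all features tested. Of the 2 day 14 controls, 1 carries the stretch of shifted signal. Group means were ordered only in the main scaling and over all members, including those that entered through 1 group. With spike-in scaling the members' median for OVA against control at day 14 went from 0.11 to -0.13. Between the control days it went from 0.12 to -0.003.

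The controls, which share a slide, gave no call between days. No member passed the threshold for control day 28 against control day 14, beside 0.00138% of all features, and 180 members (14.2%) had an unadjusted p under 0.05 in limma, beside 10.6% of all features. The median difference was 0.12 over members and 0.03 over all features, and with spike-in scaling it was 0.00 over members and -0.09 over all features. Without control day 14 replicate 2, which leaves the array with the stretch of shifted signal as the only day 14 control, limma called 26 members (2.05%), all higher at day 28, beside 2.54% of all features, of which 465 were higher and 1481 lower. NONMMUT033618 had the largest moderated t, at 4.43 and 4.66 on day 14 and 5.22 and 5.37 on day 28 (0.75 ± 0.12, log2, SE; limma adjusted p = 0.173), and passed in 2 of 22 alternatives (limma adjusted p from 0.0046 to 0.783). NONMMUT017847, described at day 14, was next, with a difference of 0.98 ± 0.21 (log2, SE; limma adjusted p = 0.263), and passed in 1 of 22 (from 0.0014 to 0.783). The difference of NONMMUT017847 was 0.48 with spots in the stretch of shifted signal left out and 0.57 without control day 14 replicate 1 (limma adjusted p = 0.337 and 0.269).

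Whether the difference between OVA and control changed between days was tested as an interaction. The controls of both days share slide 1. A difference between slides 2 and 3 enters this test in full and cannot be told apart from a change of the OVA effect. In limma 56 members (4.42%) passed, beside 3.02% of all features tested. The OVA effect was higher at day 28 in 19 (all features: 1.74%) and lower in 37 (all features: 1.28%). Of the 19, 5 are members only through OVA day 28, NONMMUT068913 among them. Of the 37 lower, 4 had a mean under 2 without the OVA day 14 arrays and 1 without the day 28 controls. This split turned with the scaling, to 45 higher of 47 with spike-in RNAs and 33 of 41 with quantile normalization. It was 32 of 43 with a percentile over only those probes that cleared background on every array, and 131 of 238 with normexp. Over all features the higher calls were 2858 of 2935, 1313 of 2108, 1832 of 2248 and 3363 of 20880 in the same order. In the main scaling they were 1266 of 2197. Normexp called 18.8% of members, beside 28.7% of all features. The main count of 56 also changed when 1 array was left out. It was 14 and 153 without control day 14 replicate 1 and 2, and 12 and 11 without control day 28 replicate 1 and 2. These are 1.1%, 12.1%, 0.946% and 0.868% of members, beside 0.998%, 7.78%, 0.811% and 0.46% of all features. It was 22, 17 and 15 without OVA day 14 replicate 2, 3 and 4, and 14, 13, 14 and 35 without OVA day 28 replicate 1, 2, 3 and 4. All features gave 1.63%, 1.11% and 1.45% in the first 3 of these fits, where members gave 1.74%, 1.34% and 1.18%, and 0.983%, 0.819%, 0.755% and 2.24% in the last 4, where members gave 1.1%, 1.03%, 1.1% and 2.76%.

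Members with the largest change of effect included NONMMUT068913, whose OVA effect was 0.12 at day 14 and 1.84 at day 28 (difference 1.72 ± 0.27, log2, SE; limma adjusted p = 0.014), and which missed the threshold in 1 of 21 alternatives (limma adjusted p from 0.0011 to 0.056). NONMMUT054298 had effects of -0.10 and 1.20 (difference 1.30 ± 0.16, log2, SE; limma adjusted p = 0.0049). NONMMUT049281 had an OVA effect of -0.54 at day 14, which missed the threshold, and of 0.75 at day 28. It read 5.69 and 5.88 in controls against 5.38, 5.19, 5.10 and 5.33 with OVA at day 14. At day 28 it read 5.39 and 5.80 against 6.41, 6.37, 6.44 and 6.18, and the difference between days was 1.29 ± 0.19 (log2, SE; limma adjusted p = 0.012). NONMMUT054298 and NONMMUT049281 passed in all 21 alternatives.

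The 3 lowest differences were less firm. NONMMUT033687 had OVA effects of 0.31 at day 14 and -0.63 at day 28 (difference -0.95 ± 0.19, log2, SE; limma adjusted p = 0.030), NONMMUT029595 of 0.11 and -0.84 (difference -0.94 ± 0.21; limma adjusted p = 0.038) and NONMMUT045834 of 0.16 and -0.76 (difference -0.92 ± 0.16; limma adjusted p = 0.022). They missed the threshold in 11, 13 and 7 of 21 alternatives, with limma adjusted p of up to 0.090, 0.128 and 0.086 from lows of 0.0042, 0.0047 and 0.0048.

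**Figure D5:**
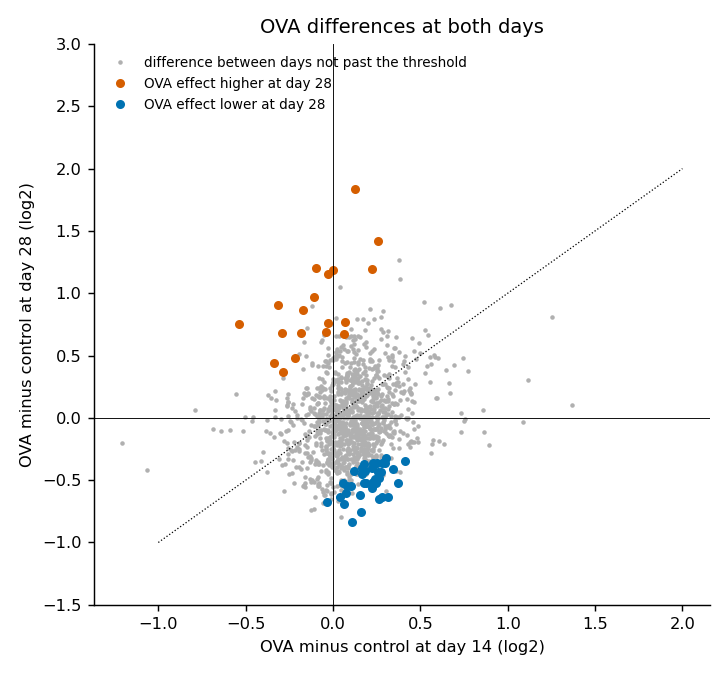
Log2 difference between OVA and control arrays at day 28 against that at day 14, 1 point a member; coloured points passed limma's test of the difference between days and the dotted line marks equal differences. The 19 orange points lie above the line and the 37 blue points below it, most of them near 0 on the day 14 axis.

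Some members with neighbouring identifiers had like profiles. Among the members are 48 pairs with consecutive NONMMUT numbers. The sources used here do not say what consecutive numbers mean. The median Pearson correlation of such a pair over the 12 arrays was 0.43 (range -0.86 to 0.99), beside 0.11 over all 803278 pairs of members, and it exceeded 0.8 in 29.2% of consecutive pairs and 5.62% of all pairs. All pairs share the same 12 arrays, and no test was made. The median gap in level was 0.45 in consecutive pairs and 0.99 over all pairs. Both members passed the threshold between the OVA days in 13 pairs, and in 11 of these they moved the same way. Of all members 42.8% passed in that comparison, 51.9% of them higher at day 28. The matching counts over all pairs were not computed, so the 13 and 11 are descriptions only.

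NONMMUT029594 stood beside the named NONMMUT029595 with a correlation of 0.96. It read 2.41 and 2.98 in day 28 controls and 2.22, 2.10, 2.06 and 2.09 with OVA, a fall by 0.58 on the log2 scale (limma adjusted p = 0.040). NONMMUT033688 was the neighbour of NONMMUT033687 (correlation 0.90) and fell by 0.65 at day 28, from 2.92 and 3.11 to 2.36, 2.32, 2.32 and 2.44 (limma adjusted p = 0.0029). The closest pair, NONMMUT054311 and NONMMUT054312 (correlation 0.99), had means of 4.33 and 3.96. These neighbours were chosen after their values were seen.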

How the data were processed

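The authors deposited scanner output, and the intensity per spot used is its background-corrected processed signal. The program was Agilent Feature Extraction, in version 11.5.1.1 by the headers of the deposited files and in version 9.1 by the submitters' processing notes. Outlier, background and saturation flags come from the same deposited files. Control spots and outlier-flagged spots were left out, log2 was taken, the 75th percentile of all non-control spots of the array was subtracted, and a probe's remaining spots were averaged. Every probe stayed a feature of its own. limma 3.58.1 (R 4.3.3) fitted the 4 groups over 12 arrays, with 8 residual degrees of freedom; code was tested on simulated data. The number of arrays, above all 2 controls a day, limits the precision.

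Named members follow a fixed rule: the 10 of highest mean; for OVA against control and between OVA days the 6 highest and 6 lowest called differences without overlap of arrays, or the 3 of largest moderated t; for the controls and the interaction the 3 highest and 3 lowest, or the 2 of largest t; the 4 of smallest and of largest standard deviation; and 3 on each side of the level. Members and rules were chosen with earlier results of these data known. Alternatives were normexp background correction (offset 50, on the median signal, since no mean signal was used here), spike-in and quantile scaling, another percentile, other filters, limma settings, the replicate number as a block and leaving out each array; leaving out spots in stretches of shifted signal was added after seeing the data.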

Additional observations from a re-analysis of the deposited data

Results flagged for a closer look

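In 4 of 86 groups of 4 OVA arrays tested for the named members, 1 array lay farther from the others than Dixon's 95% limit; chance gives about 1 in 20. For NONMMUT056508, OVA day 28 replicate 1 read 8.84, with the other 3 between 7.82 and 7.95. For NONMMUT057031 the same array read 8.76, with the others between 7.43 and 7.60. For NONMMUT016124 it read 7.83, with the others between 7.05 and 7.16. These 3 are among the 10 brightest members, of which that array was the highest of its group. For NONMMUT071936, among the steadiest members, OVA day 28 replicate 4 read 2.59, with the others between 2.75 and 2.78.

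The OVA effect differed between days in 56 members (4.42%) by limma's interaction test, beside 3.02% of all features tested. With the replicate number as a block 12 members (0.946%) passed, beside 0.68% of all features. Fewer than 56 members passed in every fit with 1 OVA array left out. The largest differences of effect, day 28 minus day 14 on the log2 scale, were 1.72 for NONMMUT068913, 1.30 for NONMMUT054298 and 1.29 for NONMMUT049281, and in the other direction -0.95 for NONMMUT033687, -0.94 for NONMMUT029595 and -0.92 for NONMMUT045834. Each of the 4 groups that enter this test is bound to 1 slide, and the controls of both days share theirs. A difference between the slides of the OVA groups therefore cannot be told apart from a change of the OVA effect.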

How the results depend on the processing

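The number of members was 1122 to 1305 under all alternatives except the percentile over probes that cleared background everywhere, which is a higher reference and left 516; leaving out 1 array gave 1263 to 1289. Counts of called members, with the 1268 members held fixed, were as follows. For OVA against control at day 14 (0), normexp gave 6, spike-in scaling 4, quantile normalization 2, testing only probes that cleared background everywhere 5, and trend with robust fitting 8; leaving out 1 array gave 0 to 36. At day 28 (254), normexp gave 439, spike-in scaling 146 and no filter on dim probes 138; leaving out 1 array gave 42 to 300. Between the OVA days (543) all alternatives stayed between 441 and 713, and leaving out 1 array gave 441 to 573. Between the control days (0), normexp gave 1, and leaving out 1 array gave 0 to 26. For the interaction (56), normexp gave 238, no filter 12, testing only probes that cleared background everywhere 112, and trend with robust fitting 141; leaving out 1 array gave 11 to 153. At day 14 normexp called 0.473% of members, beside 0.231% of all features, and spike-in scaling 0.315%, beside 0.608%. Quantile normalization called 0.158%, beside 0.194%. Testing only probes that cleared background everywhere gave 0.394%, beside 0.429%, and trend with robust fitting 0.631%, beside 0.285%. The cause of the changes in count was not tested. Filters change how many features the adjustment covers, and a fit with an array left out has fewer samples. Counts rose in some of those fits and fell in others.

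Replicate numbers are shared between groups. Correlations of deviations between same-numbered arrays ran from -0.19 to 0.47, with a median of 0.13, beside -0.06 between arrays of other numbers. The labels name no pairs, and the main fit took none. With the replicate number as a block 189 members (14.9%) were called at day 28, beside 9.39% of all features. Between the OVA days 516 (40.7%) were called, beside 31.6%. For the interaction 12 (0.946%) were called, beside 0.68%, and 0 for the other 2 comparisons. Normexp lowered the median of all features to -0.15 at day 28, -0.21 between the OVA days and -0.20 for the interaction, and spike-in scaling moved it to 0.16 for the interaction, where the members' median went from -0.13 to 0.09. Leaving out spots in stretches of shifted signal gave 265, 552 and 59 calls at day 28, between the OVA days and for the interaction. These are 21%, 43.8% and 4.68% of the 1261 members tested, beside 14.8%, 34.3% and 3.2% of all features. No named difference changed sign under any alternative. Where an arm was left with 1 array, that array is assumed to vary like the other groups.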

Other observations

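The distribution of levels has a local excess of members. Between levels of 5.5 and 5.75 there were 35 members, beside 16 between 5.25 and 5.5 and 9 between 5.75 and 6. The median Pearson correlation between the 12-array profiles of the 35 was 0.28, beside 0.36 and 0.30 in the neighbouring ranges. The range was chosen after the levels were seen, and no test was made.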
